A study of Mus musculus with 6 samples.

Results

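mmu-miR-203-3p, mmu-miR-203b-3p and mmu-miR-205-5p (miR-203-3p, miR-203b-3p and miR-205-5p below) are 3 of the 199 mature miRNAs counted in small RNA libraries of mouse small intestinal organoids. They were taken by name, as 3 entries of the count table. The organoids were grown from isolated crypts in Matrigel with a commercial organoid growth medium, and 3 libraries came from organoids cultured for 4 days with 0.5 µg/ml BMP4 (a bone morphogenetic protein, which is a secreted signal of the intestinal wall) and 3 from control organoids that had received PBS. The sources used here do not give the strain, age or number of the donor mice. Nor do the labels say whether replicate libraries were separate cultures, so the spread behind each p-value may be technical. Because whole organoids were lysed, fewer cells of a type and less RNA per cell cannot be told apart.

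miRNAs are short RNAs that guide Argonaute proteins to messenger RNAs, mainly through the seed, bases 2 to 8 of the mature strand. miR-203 is best known from skin, where it is abundant in the differentiating layers above the basal layer and represses p63, the transcription factor of the basal cells of stratified epithelia. miR-205 is known from the basal layer of stratified and glandular epithelia and represses ZEB1 and ZEB2, which repress epithelial genes. The intestine is a simple, single-layered epithelium, and its typical miRNAs are miR-192, miR-194, miR-215 and the miR-200 family.

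The sequences below are shown because counts can only separate these entries where their letters differ, and they are written 5′ to 3′ with the seed in capitals (RefSeq, GRCm38.p6).
miR-203-3p: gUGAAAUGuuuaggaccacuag
miR-203b-3p: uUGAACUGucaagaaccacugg
miR-205-5p: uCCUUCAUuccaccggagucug
miR-203-3p and miR-203b-3p were both 22 nt long and identical at 16 of 22 positions. Counted from 1 at the 5′ end, with the miR-203-3p base first, the differences were G1U, A6C, U10C, U11A, G14A and A21G, of which A6C lies in the seed. miR-205-5p had 3 positions in common with miR-203-3p and 6 with miR-203b-3p. Of the 199 entries, 177 were matched to a RefSeq mature sequence, and 0 of these shared a seed with any of the 3.

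The hairpin Mir203 lies on chromosome 12, at 112130880 to 112130955 on the + strand of GRCm38, outside annotated host genes. The nearest gene in GENCODE M21 was Aspg, an asparaginase gene that ends 3321 nt upstream. miR-203-3p was at 112130927 to 112130948. miR-203b-3p is read from the - strand of the same locus, at 112130887 to 112130908, under the RefSeq gene Gm51289, and faces the other arm of Mir203. The antisense arrangement is shown by these arms, again with the seeds in capitals.
miR-203-5p: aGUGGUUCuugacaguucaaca
miR-203b-3p: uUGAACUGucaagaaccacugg
These share a stretch of 20 nt in which one is the exact reverse complement of the other, so that miR-203b-3p is complementary to miR-203-5p and not to the counted arm miR-203-3p. Among matched entries, 1 pair had mature positions within 100 nt of each other on opposite strands, and it was miR-203-3p with miR-203b-3p. Mir205 lies on chromosome 1, at 193507463 to 193507530 on the - strand, in an exon of the long noncoding RNA 4631405K08Rik (193507238 to 193510174, same strand), with miR-205-5p at 193507503 to 193507524. The hairpin is shown with miR-205-5p in capitals to mark the arm that was counted.
Mir205: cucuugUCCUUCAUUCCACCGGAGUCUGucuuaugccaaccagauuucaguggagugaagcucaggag
miR-203-5p, miR-203b-5p and miR-205-3p were not among the 199 counted entries.

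The BMP4 libraries held 998854 to 3486409 counts and the PBS libraries 259811 to 2248866 counts over the 199 entries, which are part of each library. Levels are given as CPM (counts for each 1000000 counts of a library) on library sizes scaled by TMM, the trimmed mean of M values, which holds most miRNAs at no change. Unscaled CPM are shares of the total count. The scaling factors were 0.375 to 0.651 in BMP4 and 1.78 to 1.97 in PBS. The lowest was that of BMP4 replicate 2, a library that stood apart from the other BMP4 libraries, and PBS replicate 1 was the shallowest. Values without these libraries are given beside the results where they changed a call or moved a value by over 1.5 times. As a check of the labelled epithelium, 9 of 9 intestinal epithelial markers were present, at 809389 to 831880 unscaled CPM in BMP4 and 503140 to 526712 in PBS. By edgeR with TMM, 3 of the 9 were higher in BMP4 (miR-192-5p, miR-194-5p and miR-215-5p) and 6 were not called (17.4% of all tested miRNAs were higher). miR-215-5p alone had 605546, 605638 and 1853683 counts in BMP4 and 33201, 349455 and 339937 in PBS. The miR-200 family within this sum was at 29923 to 42861 unscaled CPM in BMP4 and 125128 to 139763 in PBS. Markers of other cell types were few, with 1 of 7 stromal and muscle miRNAs in the table (miR-1a-3p, at 12.1 to 19.5 unscaled CPM in BMP4 and 23.1 to 41.4 in PBS) and 1 of 5 immune ones (miR-155-5p, at 3.72 to 6.01 and 16.9 to 34.6). The endothelial miR-126a-3p was 1 of 2 markers, at 22.0 to 31.8 in BMP4 and 100.1 to 144.5 in PBS, and the neuronal miR-9-5p 1 of 2, at 2.79 to 31.0 in BMP4 and 2.67 to 61.6 in PBS. With TMM, miR-1a-3p (log2 fold change 0.63, edgeR adjusted p = 0.284), miR-155-5p (-0.36, 0.596) and miR-126a-3p (-0.46, 0.403) did not pass an adjusted p of 0.05. The liver miRNA miR-122-5p had 18, 19 and 29 counts in BMP4 and 5, 14 and 13 in PBS (log2 fold change 2.71 ± 0.57, SE, n = 3 per group, edgeR adjusted p = 0.000895; 0.83 with total counts, adjusted p = 0.191). The part of these miRNAs in the results below was not tested.

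BMP4 was compared with PBS by edgeR's quasi-likelihood F test over the 195 miRNAs that passed a filter on low counts, all 3 named miRNAs among them. All 3 passed the threshold (adjusted p under 0.05), 2 higher and 1 lower in BMP4, where 30.3% of all tested miRNAs passed, 17.4% higher and 12.8% lower. The CPM of BMP4 and PBS libraries were separate, with no overlap, for all 3 and for 43.6% of all tested miRNAs. The 3 were chosen with earlier results of these data known, so these shares do not test them as a group. miR-203b-3p rose, miR-205-5p fell, and miR-203-3p rose with TMM but was lower with total counts as the scale. By size of fold change among the 195, miR-203b-3p took place 8 from the top, miR-203-3p place 32 from the top and miR-205-5p place 1 from the bottom. These places are a description. miR-205-5p, with 3, 0 and 8 counts in BMP4, passed the filter through its PBS counts, and such miRNAs are favoured for the lowest places. Its place is also not resolved, as miR-25-5p was at -2.98 ± 0.58, beside -3.01 ± 0.55 (SE) for miR-205-5p.

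**Figure D1:**
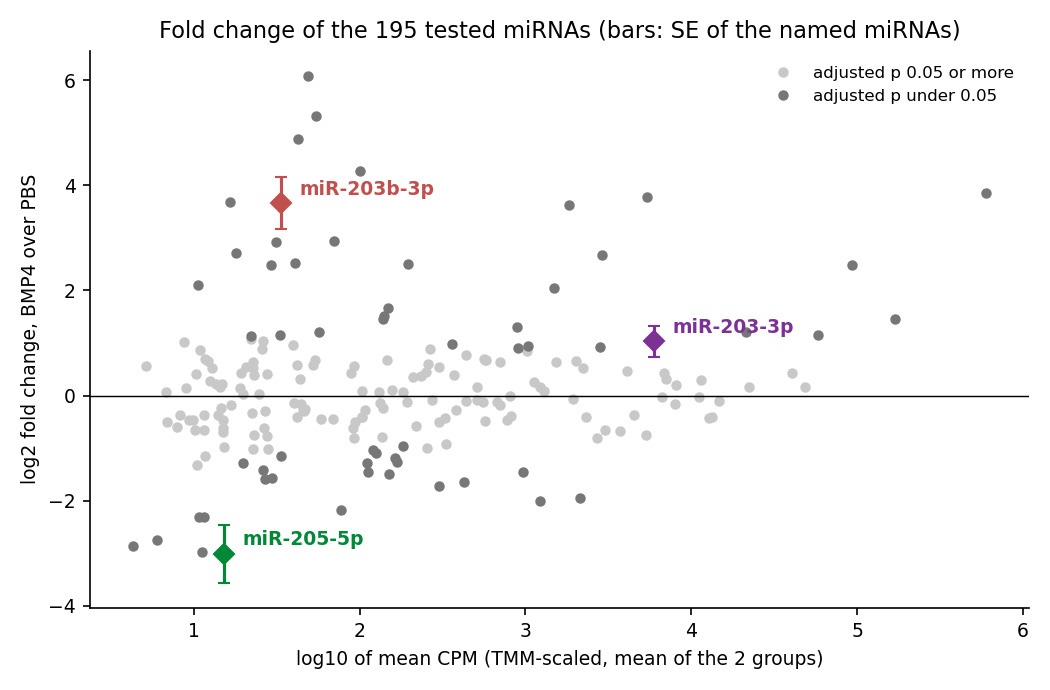
Log2 fold change (BMP4 over PBS, TMM scaling) against the log10 of the mean CPM for the 195 tested miRNAs, with dark points at an adjusted p under 0.05 and bars for the SE of the 3 named miRNAs. miR-203b-3p (3.66) and miR-205-5p (-3.01) lie at low levels and far from 0, and miR-203-3p (1.03) lies among the abundant miRNAs.

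miR-203-3p was the abundant one of the 3, at place 15 to 18 of 199 by counts in the BMP4 libraries and 22 to 24 in the PBS libraries. It had 4347, 3710 and 16629 counts in BMP4, and 1739, 16540 and 17515 counts in PBS. On the TMM scale these came to 6742, 9915 and 7326 CPM in BMP4, against 3404, 4135 and 4215 CPM in PBS. The groups did not overlap, with BMP4 higher, and the highest library was BMP4 replicate 2. Its mean was 7994 ± 1689 CPM in BMP4 and 3918 ± 447 CPM in PBS (SD, n = 3), and the fitted difference on the log2 scale was 1.03 ± 0.29 (SE, edgeR adjusted p = 0.0104, 95% interval 0.42 to 1.63). Without PBS replicate 1 the log2 fold change was 1.01 and the call was lost (edgeR adjusted p = 0.0532), and without BMP4 replicate 2 it was 0.84 (edgeR adjusted p = 0.000511).

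The direction of miR-203-3p depended on the scale. As a share of all counts, it was lower in BMP4, at 4047, 3714 and 4770 unscaled CPM, against 6693, 7355 and 8230.4 in PBS. The mean share was 4177 ± 540 unscaled CPM in BMP4 and 7426 ± 771 unscaled CPM in PBS (SD, n = 3), again without overlap (exact 2-sided permutation p = 0.1, the smallest that 3 libraries against 3 allow). By edgeR with total counts as the library size, its log2 fold change was -0.83 (adjusted p = 0.00799). With total counts 158 of the 195 tested miRNAs were called lower and 13 higher, so a lower share was the common outcome. The percentage of all miRNAs without overlap was taken on the TMM scale only. On that scale the median log2 fold change of all tested miRNAs was -1.78, against 0.03 with TMM, and miR-203-3p stood 0.95 above the median with total counts and 0.998 above it with TMM. With the arms of miR-215, miR-192 and miR-194 taken out of the library size, the value was 0.72 (adjusted p = 0.0372).

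**Figure D2:**
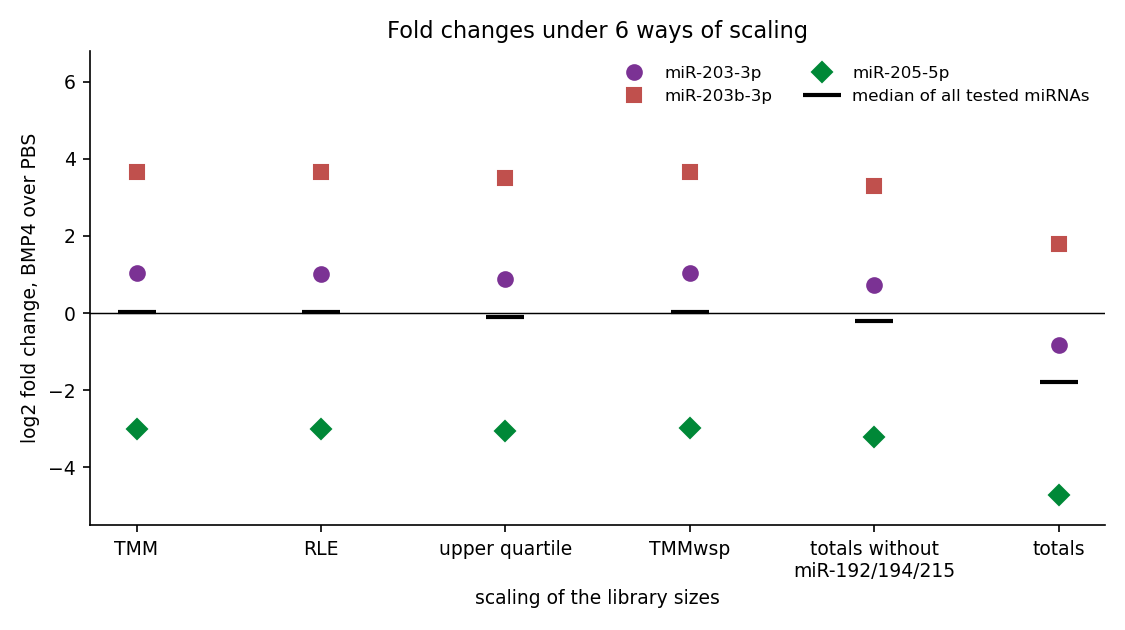
Log2 fold change (BMP4 over PBS) of the 3 miRNAs under 6 scalings of the library size, with a black bar for the median of all tested miRNAs. miR-203b-3p stays above 0 and miR-205-5p below it throughout, while miR-203-3p is above 0 in 5 scalings and at -0.83 with total counts, where the median is at -1.78.

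A ratio taken within a library does not depend on the library size, but it depends on the denominator. The miR-200 family, which keeps cells epithelial by repressing ZEB1 and ZEB2, was used as the denominator, as the summed counts of its 5 listed 3p arms. With TMM these were not called (0 of 5 by edgeR, 0 at an unadjusted p under 0.05 and 0 by DESeq2, median log2 fold change 0.16, against 0.03 over all tested miRNAs). Of all 8 measured arms of the family 1 was called, miR-200a-5p (log2 fold change 0.90, edgeR adjusted p = 0.0405), and that call was lost without any 1 library other than BMP4 replicate 2 (edgeR adjusted p = 0.0564 to 0.101). Per 1000 miR-200 family counts there were 94.4, 124.1 and 113.8 miR-203-3p counts in BMP4, against 47.9, 58.8 and 65.6 in PBS. All BMP4 values lay above all PBS values. The mean log2 ratio was higher by 0.95 in BMP4, a 1.93-fold difference (-3.18 ± 0.20 in BMP4 and -4.13 ± 0.23 in PBS, SD, n = 3, exact 2-sided permutation p = 0.1), and by 0.94 with all 8 arms in the denominator, an alternative chosen after the values were seen. With total counts the most abundant member, miR-200b-3p, was itself at -1.70 on the log2 scale (edgeR adjusted p = 1.03e-05), so the ratio compares these miRNAs with each other and gives no absolute level. As the denominator hardly moved with TMM, the ratio was bound to lie near the TMM value and is no separate check of it. The intestinal miR-192-5p rose by more than miR-203-3p with TMM (log2 fold change 1.46 ± 0.30, SE, edgeR adjusted p = 0.000654). The direction of such a ratio therefore depends on the denominator.

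miR-203b-3p, read from the strand opposite Mir203, was rare in both groups. It had 28, 36 and 103 counts in BMP4, against 4, 15 and 19 counts in PBS, which came to 43.4, 96.2 and 45.4 CPM in BMP4 and 7.83, 3.75 and 4.57 CPM in PBS. The groups did not overlap, and BMP4 replicate 2 was again the highest library. The log2 fold change was 3.66 ± 0.49 (SE, n = 3 per group, edgeR adjusted p = 5.24e-06, 95% interval 2.64 to 4.68), with means of 61.7 ± 29.9 CPM in BMP4 and 5.38 ± 2.16 CPM in PBS (SD, n = 3). It was 3.27 without BMP4 replicate 2, and its adjusted p over all alternatives ran from 1.04e-12 to 0.00388.

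As a share of all counts, miR-203b-3p was also higher in BMP4, at 26.1 (95% Wilson interval 18.04 to 37.7), 36.0 (26.0 to 49.9) and 29.5 (24.4 to 35.8) unscaled CPM, against 15.4 (5.99 to 39.6), 6.67 (4.04 to 11.0) and 8.93 (5.72 to 13.9) in PBS. The interval of PBS replicate 1, which held 4 counts, reached into those of all BMP4 libraries, while the intervals of PBS replicates 2 and 3 lay below all of them. The mean share was 30.6 ± 5.06 unscaled CPM in BMP4 and 10.3 ± 4.53 in PBS (SD, n = 3), 2.96-fold higher in BMP4 (exact 2-sided permutation p = 0.1). With total counts the log2 fold change by edgeR was 1.78 (adjusted p = 0.00388), so the direction held and the size was smaller than with TMM.

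**Figure D3:**
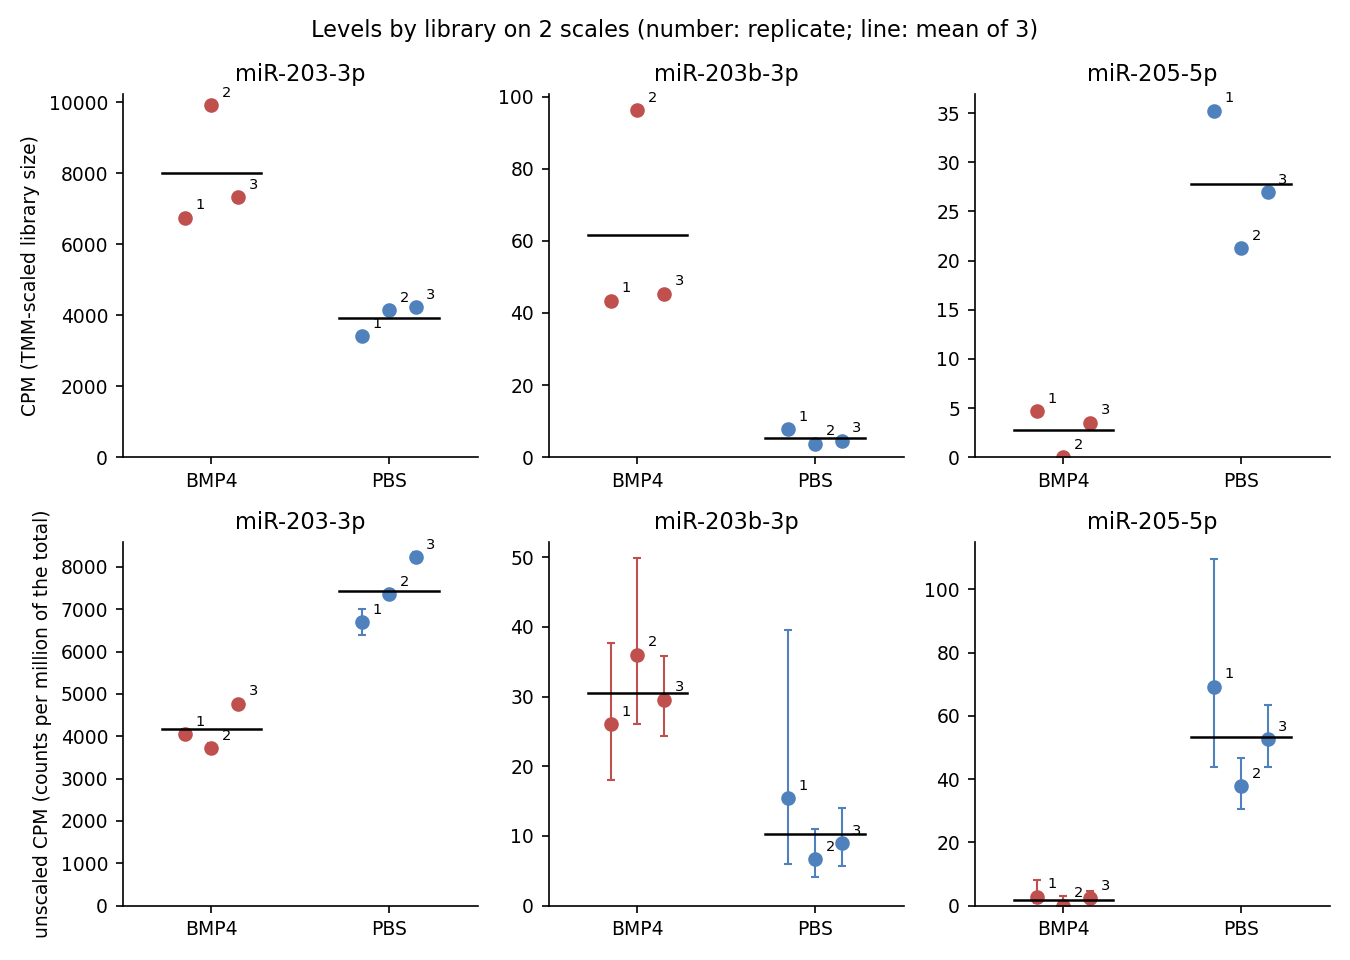
Level of each miRNA by library as CPM on the TMM scale (upper row) and as unscaled CPM (lower row, bars for 95% Wilson intervals, or up to 3 counts where the count is 0), with the replicate number beside each point and a line at the mean of 3. miR-203-3p is higher in BMP4 on the TMM scale and lower on the unscaled scale, miR-203b-3p is higher in BMP4 on both, and miR-205-5p is lower on both.

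The ratio between the products of the 2 strands of the locus was higher in all BMP4 libraries than in any PBS library. There were 6.44 (exact 95% interval 4.28 to 9.32), 9.70 (6.79 to 13.5) and 6.19 (5.05 to 7.52) miR-203b-3p counts per 1000 miR-203-3p counts in BMP4, against 2.30 (0.626 to 5.90), 0.907 (0.507 to 1.496) and 1.08 (0.653 to 1.69) in PBS. Every BMP4 ratio lay above every PBS ratio, although the interval of PBS replicate 1 overlapped those of BMP4 replicates 1 and 3. The mean was 7.45 ± 1.96 per 1000 in BMP4 and 1.43 ± 0.758 per 1000 in PBS (SD, n = 3). On the log2 scale, with 0.5 added to each count, the ratio was higher by 2.41 in BMP4, a 5.30-fold difference (exact 2-sided permutation p = 0.1), and between 2.12 and 2.85 with any 1 library left out. miR-203b-3p nevertheless stayed a minor product, at under 10 counts per 1000 of miR-203-3p in all 6 libraries. Against the miR-200 family, miR-203b-3p had 0.608, 1.204 and 0.705 counts per 1000 in BMP4 and 0.110, 0.0533 and 0.0711 in PBS.

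miR-205-5p nearly dropped out of the BMP4 libraries. It had 3, 0 and 8 counts in BMP4, against 18, 85 and 112 counts in PBS, which gave 4.65, 0 and 3.52 CPM in BMP4 and 35.2, 21.2 and 26.95 CPM in PBS. The highest BMP4 library lay under the lowest PBS library. In BMP4 replicate 2, a count of 0 allows up to 3 counts, worth 8.02 CPM on the TMM scale, which is also under the lowest PBS value. The log2 fold change was -3.01 ± 0.55 (SE, n = 3 per group, edgeR adjusted p = 0.000233, 95% interval -4.15 to -1.86), with means of 2.73 ± 2.43 CPM in BMP4 and 27.8 ± 7.03 CPM in PBS (SD, n = 3). With 11 counts over all BMP4 libraries, the size of this fall is uncertain.

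By share, miR-205-5p was at 2.79 (95% Wilson interval 0.950 to 8.21), 0 (at most 3.003, the level of 3 counts) and 2.29 (1.16 to 4.53) unscaled CPM in BMP4, against 69.3 (43.8 to 109.5), 37.8 (30.6 to 46.7) and 52.6 (43.7 to 63.3) in PBS. The Wilson upper limit for the count of 0 was 3.85 unscaled CPM. The upper limits of all BMP4 libraries lay below the lower limits of all PBS libraries. The call held without each library in turn, with log2 fold changes of -3.23 to -2.77 and adjusted p-values of 1.80e-05 to 0.00479, and the value with total counts was -4.71 (adjusted p = 5.53e-05). On that scale 158 of the 195 tested miRNAs were called lower. These intervals cover counting error within a library only, not the spread between libraries. They can be too narrow even for that, because amplified copies of a molecule are not independent.

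Set against miR-203-3p in the same library, miR-205-5p had 0.690, 0 and 0.481 counts per 1000 in BMP4 and 10.4, 5.14 and 6.39 in PBS. The log2 ratio was lower by 4.21 in BMP4 (difference -4.21, exact 2-sided permutation p = 0.1), and by less, at -3.46, without BMP4 replicate 2, whose count of 0 rests on the added 0.5. The order of the rare pair was reversed between the groups. In BMP4 there were 107 (exact 95% interval 20.8 to 347), 0 (at most 83.3, again for 3 counts) and 77.7 (32.7 to 159) miR-205-5p counts per 1000 miR-203b-3p counts, against 4500 (1482 to 18280.0), 5667 (3250 to 10567) and 5895 (3604 to 10156) in PBS. The exact upper limit for the count of 0 was 107.9. On the log2 scale the difference of this ratio was -6.62 (exact 2-sided permutation p = 0.1), and -5.66 without BMP4 replicate 2. miR-203b-3p was the more counted of the pair in 3 of 3 BMP4 libraries and miR-205-5p in 3 of 3 PBS libraries, while miR-203-3p was far above both in all 6. Counts of different miRNAs in a ligated library can differ from their molar amounts, so this order is one of counts. Over the 9 shares and ratios tested, each had an exact permutation p of 0.1, and 0.1 after Benjamini-Hochberg adjustment, so none passed 0.05 in this design.

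**Figure D4:**
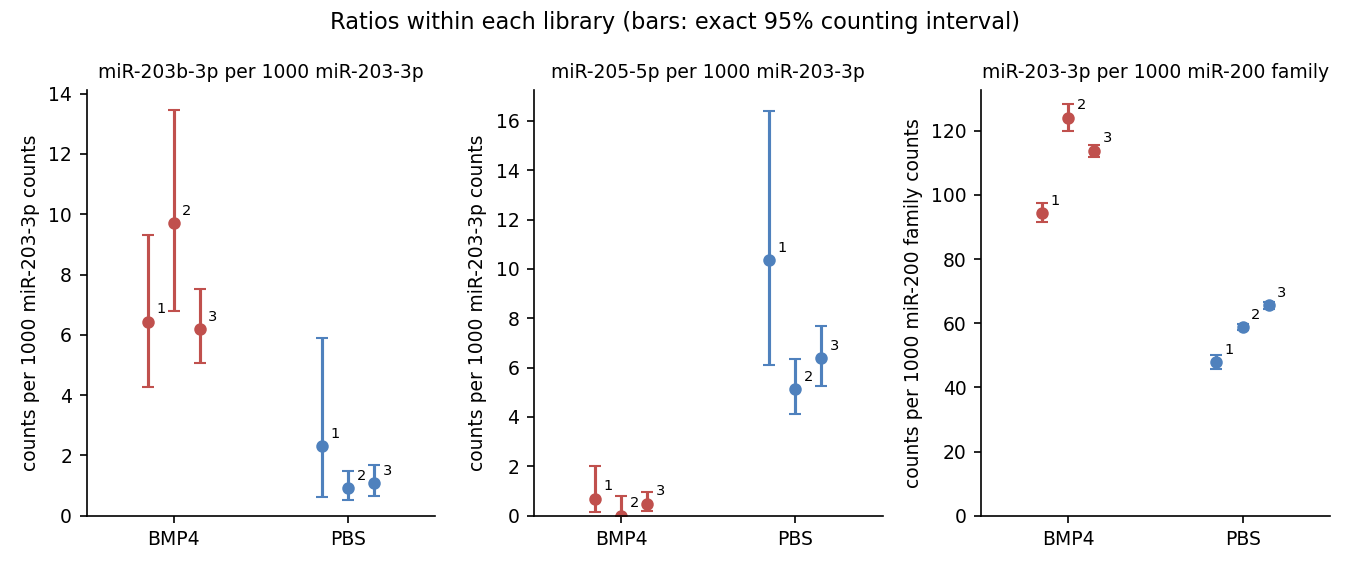
Counts of miR-203b-3p and of miR-205-5p per 1000 miR-203-3p counts, and of miR-203-3p per 1000 miR-200 family counts, in each library, with bars for exact 95% counting intervals (up to 3 counts where the count is 0) and the replicate number beside each point. The ratio of miR-203b-3p is higher in all BMP4 libraries (6.19 to 9.70, against 0.907 to 2.30 in PBS), that of miR-205-5p is lower (0 to 0.690 in BMP4, against 5.14 to 10.4 in PBS) and that of miR-203-3p is higher (94.4 to 124.1 in BMP4, against 47.9 to 65.6 in PBS).

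Other miRNAs known from keratinocytes and stratified epithelia were called about as often as all tested miRNAs. Of a list of 16, which included the uncounted arms miR-203-5p, miR-203b-5p and miR-205-3p, 9 were measured. Among these, 1 was higher, 2 were lower and 6 did not pass (30.3% of all tested miRNAs passed, 17.4% higher and 12.8% lower). Their median log2 fold change was -0.03, against 0.03 over all tested miRNAs. The member that was higher was miR-378a-3p, whose hairpin lies in the metabolic coactivator gene Ppargc1b, at 29642 ± 762 CPM in BMP4 and 12856 ± 2439 CPM in PBS (SD, n = 3, log2 fold change 1.21 ± 0.28, SE, edgeR adjusted p = 0.00210; -0.60 with total counts). The members that were lower were both of the p53-responsive miR-34 family. miR-34c-5p had 2, 1 and 11 counts in BMP4 and 8, 82 and 95 in PBS (log2 fold change -2.31 ± 0.49, SE, edgeR adjusted p = 0.00100). miR-34a-5p had 13, 2 and 28 counts in BMP4 and 25, 114 and 188 in PBS (-1.60 ± 0.46, edgeR adjusted p = 0.0111), a call that was lost without BMP4 replicate 3 (0.0709), PBS replicate 1 (0.0505) or PBS replicate 3 (0.101). miR-31-5p, a growth-associated miRNA of hair follicle and gut, was at 0.65 ± 0.34 (SE, edgeR adjusted p = 0.164). It was called without BMP4 replicate 2 (0.92, edgeR adjusted p = 0.000721), while it stood at 0.26 (0.611) without BMP4 replicate 1 and at -1.08 (0.0310) with total counts. miR-21a-5p, a widely expressed miRNA of growing tissue, was at 0.69 ± 0.34 (SE, edgeR adjusted p = 0.144), at 0.44 (0.246) without BMP4 replicate 2 and at -1.18 (0.00636) with total counts. Most of these 9 are also expressed in the intestine, so the list does not mark stratified cells alone.

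The miRNAs whose log2 CPM followed each of the 3 most closely over the 6 libraries were looked up among the other tested miRNAs with a mean of 10 or more counts. Since the libraries fall into 2 groups and share their scaling, these correlations mainly compare group differences, and they are given as a description. For miR-203-3p the nearest were miR-194-2-3p (Pearson r = 0.991), miR-152-3p (0.989) and miR-5099 (0.987). miR-194-2-3p, an arm of an intestinal miRNA, had 237, 233 and 1030 counts in BMP4 and 106, 998 and 1110 in PBS, a log2 fold change of 0.99 ± 0.35 (SE, edgeR adjusted p = 0.0396) whose call was lost without BMP4 replicate 3 (0.0836), PBS replicate 1 (0.0999), PBS replicate 2 (0.0980) or PBS replicate 3 (0.0766). miR-152-3p had 113, 97 and 437 counts in BMP4 and 34, 303 and 311 in PBS (1.51 ± 0.37, adjusted p = 0.00304). With total counts miR-194-2-3p was at -0.87 (edgeR adjusted p = 0.0324), miR-152-3p at -0.33 (0.389) and miR-5099 at 0.08 (0.828), so that 1 of the 3 turned lower past the threshold as miR-203-3p did. For miR-203b-3p they were both arms of the intestinal miRNA miR-215, miR-215-3p (r = 0.992) and miR-215-5p (0.971), with miR-152-3p (0.972) between them. The log2 fold changes of miR-215-3p and miR-215-5p were 3.77 ± 0.35 and 3.85 ± 0.34 (SE, edgeR adjusted p = 2.97e-08 and 2.25e-08), beside the 3.66 of miR-203b-3p. For miR-205-5p the nearest were miR-25-5p (r = 0.995), the minor arm of a hairpin in Mcm7, a gene of DNA replication, miR-19a-3p (0.984) of the proliferation-associated miR-17-92 cluster, and miR-34a-5p (0.980). miR-25-5p had 2, 0 and 6 counts in BMP4 and 14, 72 and 66 in PBS, counts of like size to those of miR-205-5p. Between the 3 miRNAs themselves, r was 0.938 for miR-203-3p with miR-203b-3p, and -0.986 and -0.939 for miR-205-5p with miR-203-3p and miR-203b-3p.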

How the data were processed

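The authors trimmed adaptors with bbmap, kept inserts of miRNA length, mapped reads to the genome and counted those on miRBase mature miRNAs with miRDeep2. The deposited values are raw, unnormalized counts. The sources used here do not give the genome build, the miRBase release or the rule that kept the 199 entries. Per the labels, edgeR was among the submitters' tools. Here counts were tested with edgeR 4.0.16 in R 4.3.3 (TMM, filterByExpr, 2-sided quasi-likelihood F test, Benjamini-Hochberg adjustment over 195 miRNAs), with each SE derived from the log2 fold change and F. The fit was tested on simulated data for this comparison (193 miRNAs, dispersion 0.05), where edgeR called 20 of 20 miRNAs changed by 2 and 19 of 19 changed by 3 on the log2 scale, and 0 unchanged ones. Recovery of a smaller log2 fold change, such as the 1.03 of miR-203-3p, was not tested. Shares and within-library ratios were compared by exact 2-sided permutation in scipy 1.17.1. Alternatives were other scalings and filters, DESeq2 1.42.0, a likelihood ratio test, a replicate block and leaving out each library. A floor of 3 counts was worth 0.860 to 11.5 unscaled CPM. The rule for named miRNAs was the 3 entries, the 3 nearest profiles of each among miRNAs with a mean of 10 or more counts, and measured members of the lists. The entries and lists were chosen with earlier results of these data known. Sequences and positions are those of RefSeq and GENCODE M21 on GRCm38, matched by name. Libraries of a group differed by more than sampling noise, with chi-square values per degree of freedom of 48.5 to 324, so none was counted as a copy of another.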

Additional observations from a re-analysis of the deposited data

How the results depend on the processing

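Over 13 results and 130 alternatives, 125 kept their direction and their side of the threshold, or stayed within 1.5 times the count. For the 9 shares and ratios only the direction was compared, because their permutation p cannot fall under 0.1. Their groups did not overlap, so leaving out 1 library could not turn the direction. Those outcomes were fixed in advance and do not measure how stable the results are. With total counts as the library size 171 miRNAs were called, 13 higher and 158 lower, against 59 with TMM (34 higher and 25 lower), and the split was 29 and 31 with the upper quartile and 24 and 26 with totals that left out the arms of miR-215, miR-192 and miR-194. With 1 library left out, 35 (without PBS replicate 3) to 71 (without BMP4 replicate 2) miRNAs were called. miR-203-3p turned to -0.83 on the log2 scale with total counts, and its share, 3249 unscaled CPM lower in BMP4 (difference -3249), was 7728 unscaled CPM higher when those arms were left out of the denominator. Only the denominator differs between these values. Its log2 fold change ran from 0.84 to 1.19 with 1 library left out, and the call was lost without PBS replicate 1 (1.01, edgeR adjusted p = 0.0532; the cause was not tested). The calls of miR-203b-3p and miR-205-5p held under every alternative run. A filter at a mean of 10 counts kept the same 199 entries as no filter. The titles give both groups the same replicate numbers, but libraries of one number did not deviate together (correlations 0.04, 0.09 and -0.01), so the numbers were not taken as pairs. With a replicate block 49 miRNAs were called, and the log2 fold changes were 1.01 for miR-203-3p, 3.64 for miR-203b-3p and -3.15 for miR-205-5p, all still called. Depth limits miR-205-5p in BMP4 and miR-203b-3p in PBS, with 11 and 38 counts in all.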
